A study of Mus musculus with 19 samples.

Results

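The retinoid receptors, Pml and retinoid target genes are 10 genes of the retinoic acid pathway: the receptors Rara, Rarb, Rarg, Rxra, Rxrb and Rxrg, the gene Pml, and Cyp26a1, Cyp26b1 and Dhrs3, whose products act on retinoids. They were taken by name, each from the probe sets annotated to it alone. Of the 10 genes, 9 were measured, of 15781 genes in all, through 106 probe sets, and no probe set carried the symbol of Dhrs3. RNA had been profiled on mouse exon arrays in myeloid progenitors sorted from bone marrow, 19 arrays in 6 groups. CMP are common myeloid progenitors and GMP are granulocyte-monocyte progenitors, which arise from CMP. On the C57Bl/6J strain, CMP were profiled on 3 arrays of the wild type and 3 of Dnmt3a-/- mice, and GMP on 4 and 3. A further 2 arrays held PR+/- GMP and 4 held PR+/- Dnmt3a-/- GMP, with no strain labelled. PR is taken to stand for PML-RARA, which the series title names, and the promoter that drives it, the age of the mice and the way Dnmt3a was removed are not given in the sources used here.

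Retinoic acid receptors (RAR) bind DNA as heterodimers with retinoid X receptors (RXR). Without ligand they recruit co-repressors, and with all-trans retinoic acid they exchange these for co-activators and switch on target genes. In acute promyelocytic leukaemia a translocation joins PML, which scaffolds nuclear bodies, to RARA, and the fusion represses retinoid targets and blocks maturation at the promyelocyte until a pharmacological dose of retinoic acid releases it. Dnmt3a is a de novo DNA methyltransferase. The arrays give the signal of the receptor genes, Pml and retinoid targets when the fusion was present and when Dnmt3a was lost. They were not used to separate the endogenous Rara and Pml transcripts from those of the fusion.

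The binding element of an RAR and RXR pair is a direct repeat of a hexamer that ends in GNTCA, most often with 5 bases between the hexamers. The letters searched, on both strands, were GNTCA, any 6 bases, and GNTCA. They occurred in 0.861% of 32851 RefSeq windows of 300 bases (250 before to 50 after a start site, GRCm38.p6). The same half-sites with spacings of 1 and 2, which use letters that can overlap with the first search, occurred in 1.26% and 1.12%. Among 19 windows of the 10 genes only those of Rarb and Cyp26a1 held such a repeat, in both with a spacing of 5. Both windows are shown because these genes are the textbook direct targets of retinoic acid, with the repeat in capitals. The Rarb window lies at chr14:16575427-16575726 on the minus strand, and its repeat starts at position -52 from the start site and reads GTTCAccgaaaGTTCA. The Cyp26a1 window lies at chr19:37697558-37697857 on the plus strand. Its repeat reads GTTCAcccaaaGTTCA on the opposite strand, where its leftmost base in the window is at position -32. The first of 2 Rxra windows, at chr2:27676951-27677250 on the plus strand, is shown because Rxra was the receptor that moved, with each CG dinucleotide, the substrate of Dnmt3a, in capitals.
Rarb: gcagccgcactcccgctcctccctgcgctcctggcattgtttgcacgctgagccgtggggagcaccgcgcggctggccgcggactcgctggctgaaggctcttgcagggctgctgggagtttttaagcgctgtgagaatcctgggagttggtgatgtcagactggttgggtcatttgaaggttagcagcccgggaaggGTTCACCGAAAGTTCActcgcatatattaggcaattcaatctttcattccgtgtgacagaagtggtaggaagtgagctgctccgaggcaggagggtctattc
Cyp26a1: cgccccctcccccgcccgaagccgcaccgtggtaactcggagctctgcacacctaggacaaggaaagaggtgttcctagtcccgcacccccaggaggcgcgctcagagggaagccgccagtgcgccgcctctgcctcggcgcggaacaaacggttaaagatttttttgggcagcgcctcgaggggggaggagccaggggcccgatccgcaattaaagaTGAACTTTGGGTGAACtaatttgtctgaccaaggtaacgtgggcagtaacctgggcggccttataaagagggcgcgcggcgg
Rxra: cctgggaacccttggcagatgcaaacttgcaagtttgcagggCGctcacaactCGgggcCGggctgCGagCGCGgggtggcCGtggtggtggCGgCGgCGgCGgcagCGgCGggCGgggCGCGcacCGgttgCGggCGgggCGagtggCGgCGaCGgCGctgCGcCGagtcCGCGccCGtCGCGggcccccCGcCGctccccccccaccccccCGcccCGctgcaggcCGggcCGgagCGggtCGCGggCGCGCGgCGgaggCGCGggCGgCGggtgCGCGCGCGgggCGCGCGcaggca
The first Rxra window held 55 CG dinucleotides, an observed to expected ratio of 1.08 and 83% G and C. The second Rxra window, at chr2:27709042-27709341, held 1 CG, a ratio of 0.0459 and 54.3% G and C. The medians over all windows were 7, 0.384 and 52.7%. Rxra is not alone in this, since the windows of Rxrb held 37 and 47 CG, ratios of 1.05 and 0.936, and 68.7% and 82% G and C. No methylation was measured on these arrays. The absence of a repeat says only that these letters are not in these windows.

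Dnmt3a itself was read first. Its log2 level was 7.07 to 7.65 on the 9 arrays of the groups with intact Dnmt3a and 5.82 to 6.49 on the 10 Dnmt3a-/- arrays, so no array went against its label. Of the genes that mark GMP, 3 of 4 primary granule genes were measured, and their mean level was 11.91 to 12.08 in wild-type GMP and 10.68 to 11.68 in wild-type CMP. Immediate early and heat shock genes stood at 8.06 to 9.14 on 5 arrays (the first of the wild-type CMP, and replicates 1 and 2 both of wild-type GMP and of PR+/- Dnmt3a-/- GMP) and at 6.39 to 7.85 on the other 14. Y-linked genes were at 2.54 to 3.25 on 9 arrays, all 6 Dnmt3a-/- arrays without PR among them, and at 6.73 to 7.25 on the other 10. Wild-type CMP replicate 3, wild-type GMP replicate 4 and PR+/- Dnmt3a-/- GMP replicate 2 were also low. A difference in the sex of the donors thus cannot be fully told apart from genotype where the Dnmt3a-/- arrays without PR are compared with other genotypes. Whether each array stands for its own animal is not labelled, so the p-values cover only the spread among the arrays, which may be technical. In sorted populations fewer cells of a type and less RNA per cell cannot be told apart.

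Rxra, the main RXR of myeloid cells, was higher on all 6 PR+/- arrays than on the 7 other GMP arrays, as were 1.59% of all genes. It was the member with the largest difference. Rara was lower in GMP than in CMP of the wild type. In PR+/- GMP the level of Rara was nearer to that of CMP, without passing the test over all genes. Rarb and Cyp26a1, the genes with the repeat in their windows, did not pass the test in any comparison, nor did Cyp26b1, Pml, Rarg, Rxrb and Rxrg.

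**Figure D1:**
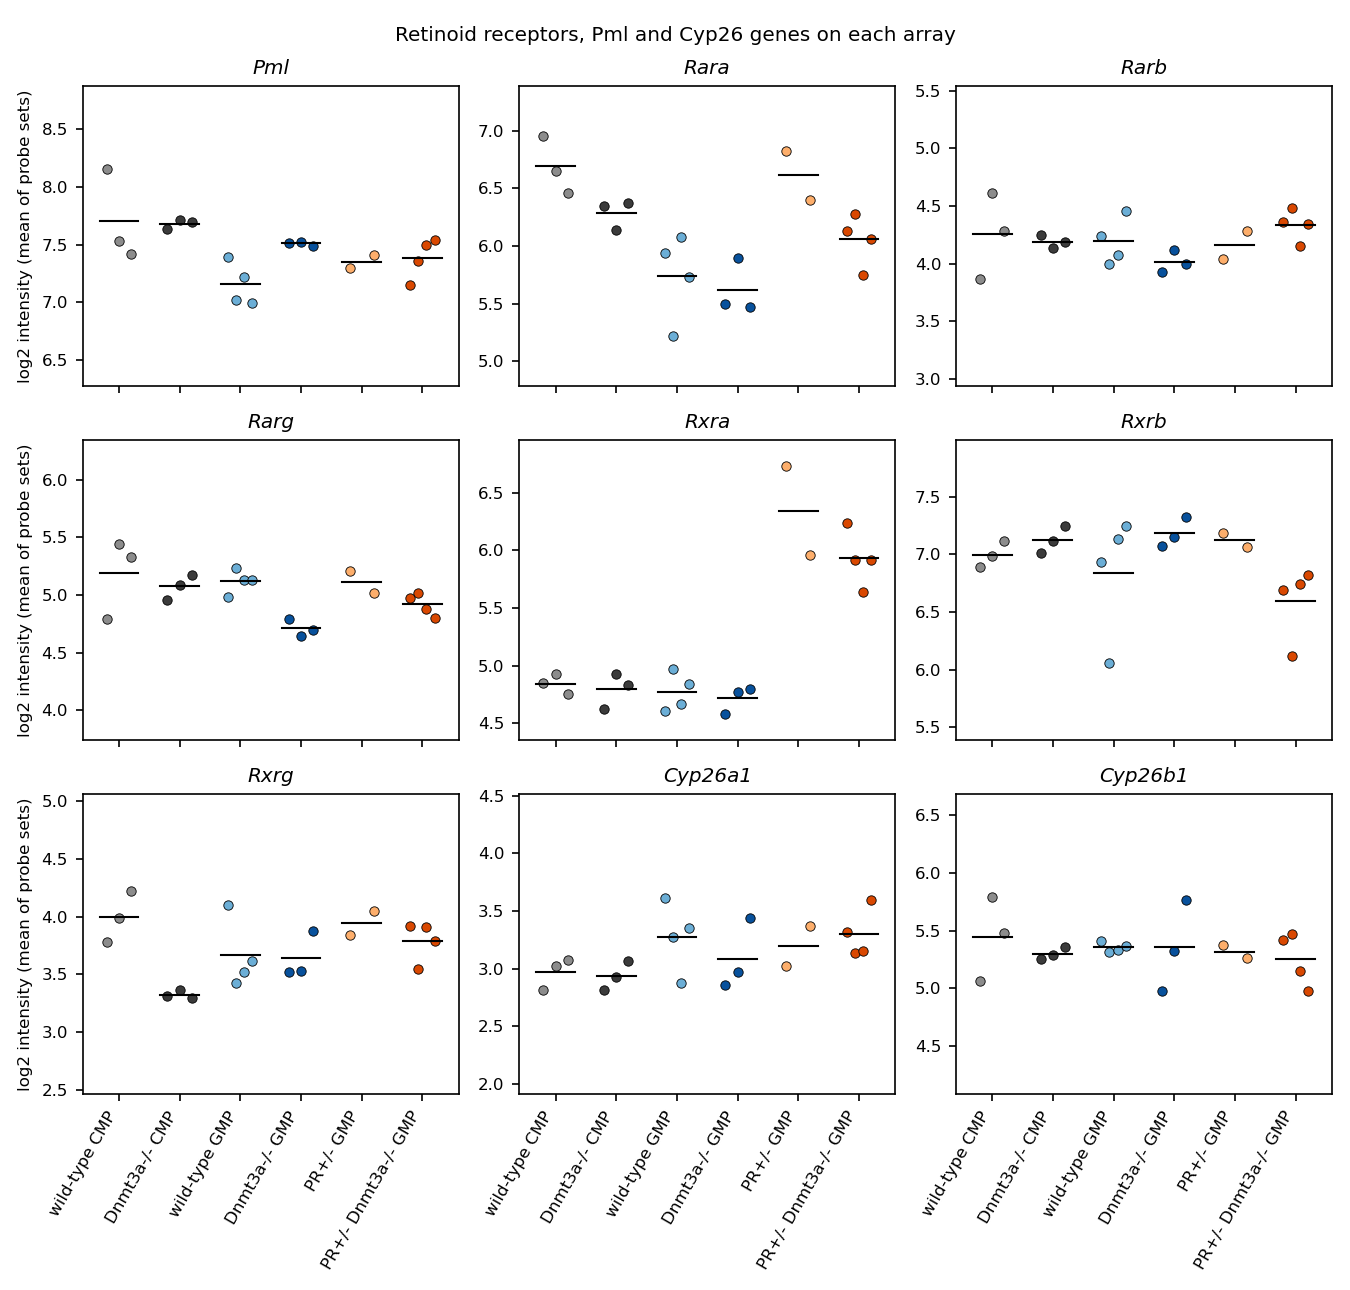
Log2 intensity of the 9 measured genes on each of the 19 arrays, by group (points: arrays, spread sideways; lines: group means; every panel spans the same number of log2 units). The 6 PR+/- points of Rxra lie at 5.64 to 6.73 and the 13 others at 4.58 to 4.97, while Rara is highest in wild-type CMP and PR+/- GMP.

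Rara encodes the receptor that the fusion takes its ligand-binding part from. Its levels were 6.96, 6.65 and 6.46 in wild-type CMP and 5.94, 5.22, 6.08 and 5.73 in wild-type GMP. They were 6.35, 6.14 and 6.37 in Dnmt3a-/- CMP and 5.50, 5.90 and 5.47 in Dnmt3a-/- GMP. All 6 CMP arrays lay above all 7 GMP arrays without PR, which held for 1 of the 9 members and for 2.98% of all genes. Between wild-type GMP and CMP the log2 difference was -0.95 ± 0.20 (SE; 3 and 4 arrays), 1.93-fold, with a limma adjusted p of 0.0165. Of all genes 4.3% passed in this comparison, and of the members Rara alone. Without wild-type CMP replicate 1 the difference was -0.82 (adjusted p = 0.0910), and without the 5 arrays high in immediate early genes it was -0.65 (adjusted p = 0.136). With the median of the probe sets it was -0.56 (adjusted p = 0.328), and with the brighter probe sets alone -0.83 (adjusted p = 0.0841).

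In cells without Dnmt3a the difference of Rara between GMP and CMP was -0.66 ± 0.21 (adjusted p = 0.0716, and 0.0238 when wild-type GMP replicate 2 was left out of the shared spread). No member passed there, where 10.1% of all genes did, and 2, Rara and Rarg, had an unadjusted p below 0.05, as did 20.9% of all genes. With Dnmt3a-/- CMP and GMP arrays of adjacent title numbers as a random block the adjusted p of Rara was 0.0413. Over 22 alternatives the difference of Rara was -0.80 to -0.50 and its limma adjusted p 0.0175 to 0.238, and in 17 it did not pass. Single probe sets of Rara all ran in the same direction. In wild type 12 of 12 were lower in GMP, with a median difference of -0.73, and without Dnmt3a 12 of 12, with a median of -0.67. Probe set 4610947 alone passed, at -2.50 (adjusted p = 0.0105), against 0.517% of all probe sets. It read 4.59, 5.10 and 4.81 in wild-type CMP and from 1.59 to 2.999 in wild-type GMP. Probe sets of a gene share its RNA and are not replicates.

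Marker genes of other lineages differed between the same wild-type CMP and GMP arrays. The mean level of the 4 megakaryocyte genes was 6.94 to 7.24 in CMP and 5.25 to 6.24 in GMP, and that of the 6 dendritic genes was 7.11 to 8.03 and 4.93 to 5.88. The 2 measured of 5 erythroid genes stood at 6.43 to 7.72 and 4.48 to 5.53, and the 2 eosinophil genes at 4.88 to 6.76 and 8.54 to 10.24. Their part in the difference of Rara was not tested.

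On the PR+/- arrays Rara stood at 6.82 and 6.40 in PR+/- GMP and at 6.13, 6.28, 5.75 and 6.06 in PR+/- Dnmt3a-/- GMP. Both PR+/- GMP arrays lay above all 4 wild-type GMP arrays, and the share of all genes that did so was not counted. The PR+/- Dnmt3a-/- arrays lay below both and overlapped with wild-type and Dnmt3a-/- GMP. The difference between PR+/- and wild-type GMP was 0.87 ± 0.24 (adjusted p = 0.0704). It passed the threshold when dim genes were left out (adjusted p = 0.0472), when all 19 arrays were fitted together (0.0312) and with array weights (0.0476). In the other 19 of 22 alternatives it did not pass, and over all of them the difference was 0.56 to 1.08. Between PR+/- Dnmt3a-/- and Dnmt3a-/- GMP it was 0.43 ± 0.21 (adjusted p = 0.357), and the difference of these effects was -0.44 ± 0.32 (adjusted p = 0.541).

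Of the Rara probe sets 12 of 12 were higher in PR+/- than in wild-type GMP, by 0.14 to 1.76 with a median of 0.91, and none passed, against 0.26% of all probe sets. This comparison shares the wild-type GMP arrays with that of GMP and CMP. With Dnmt3a absent, 7 were higher and 5 lower with PR, from -0.66 to 2.09, and none passed, against 0.0947% of all probe sets. The probe set with the difference of 2.09, 4835928, read 8.62 and 8.17 in PR+/- GMP and 9.13, 9.77, 7.23 and 8.35 in PR+/- Dnmt3a-/- GMP. It read 6.70, 6.06, 7.39 and 6.40 in wild-type GMP and 6.94, 7.46 and 5.20 in Dnmt3a-/- GMP. Which exon a probe set lies in, and whether transcripts of the fusion bind to it, was not analysed here.

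**Figure D2:**
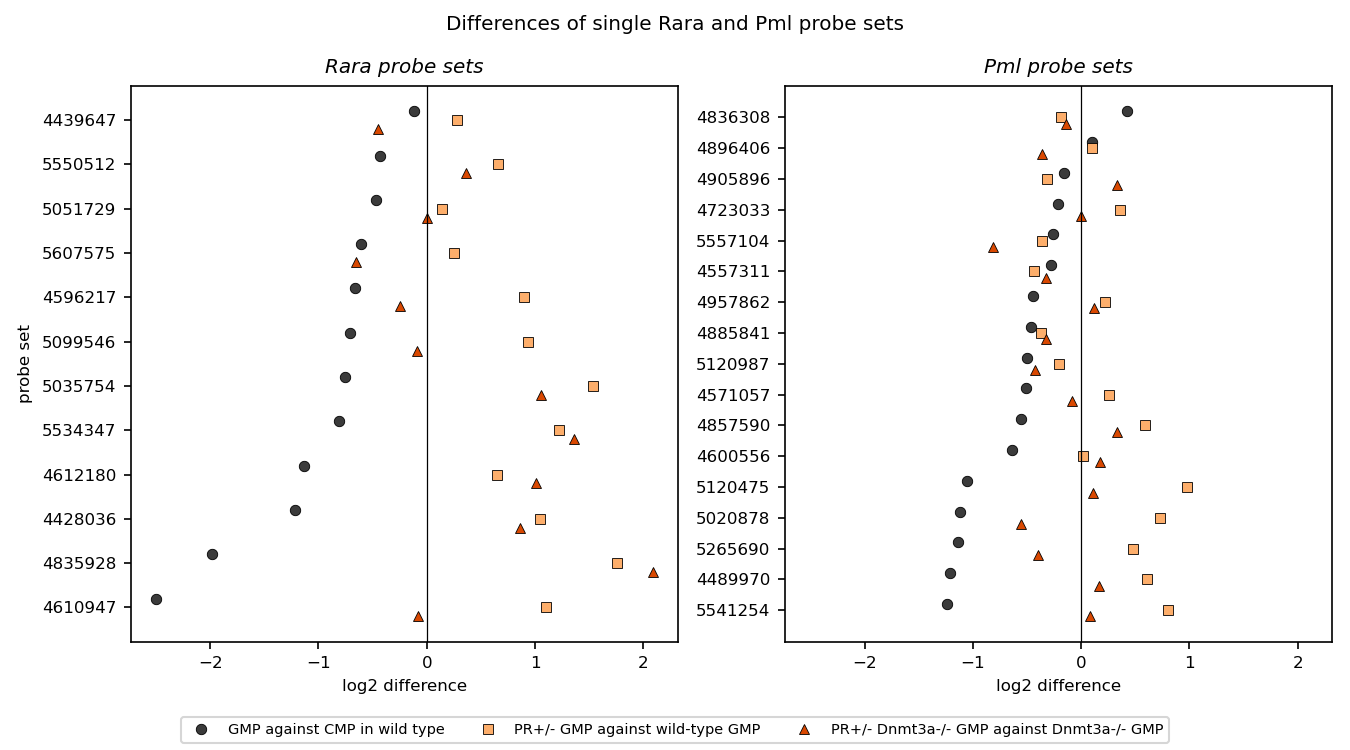
Log2 difference of each of the 12 Rara and 17 Pml probe sets in 3 comparisons, ordered by the difference between wild-type GMP and CMP (circles, with squares for PR+/- against wild-type GMP and triangles for PR+/- Dnmt3a-/- against Dnmt3a-/- GMP). All 12 Rara circles lie below 0 and all 12 squares above it, while the Pml squares and triangles lie on both sides.

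Pml encodes the scaffold of PML nuclear bodies and an interferon-induced protein. It read 8.16, 7.53 and 7.42 in wild-type CMP and 7.40, 7.02, 7.22 and 6.99 in wild-type GMP. It read 7.63, 7.71 and 7.70 in Dnmt3a-/- CMP, 7.52, 7.52 and 7.49 in Dnmt3a-/- GMP, 7.29 and 7.41 in PR+/- GMP, and from 7.15 to 7.54, with a median of 7.43, in PR+/- Dnmt3a-/- GMP. Wild-type GMP was the group with the lowest mean. Its highest array, at 7.40, was close to the lowest wild-type CMP array, at 7.42. The difference between wild-type GMP and CMP was -0.54 ± 0.17 (adjusted p = 0.0996), with 15 of 17 probe sets lower. The difference between Dnmt3a-/- and wild-type GMP was 0.35 ± 0.17 (adjusted p = 0.278), with 15 of 17 probe sets higher. Between PR+/- and wild-type GMP it was 0.19 ± 0.16 (adjusted p = 0.594), with 11 of 17 higher. Between PR+/- Dnmt3a-/- and Dnmt3a-/- GMP it was -0.12 ± 0.14 (limma adjusted p = 0.719), with 10 of 17 lower. No Pml probe set passed in any of the 10 comparisons. Whether transcripts of the fusion bind to Pml probe sets was not analysed here.

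Rarb, itself a retinoic acid target, and Rarg, the third receptor, showed no difference that passed. Rarb lay at 3.87 to 4.61 over all 19 arrays, with medians of 4.32 on the PR+/- arrays and 4.14 on the others. Its difference with PR was -0.03 ± 0.16 in the presence of Dnmt3a (adjusted p = 0.953) and 0.32 ± 0.14 in its absence (adjusted p = 0.317). Rarg read 4.99, 5.23, 5.13 and 5.13 in wild-type GMP and 4.79, 4.64 and 4.70 in Dnmt3a-/- GMP. The difference was -0.41 ± 0.15, with an adjusted p of 0.186. It was 0.03 with the median of the probe sets.

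Rxra read 4.85, 4.93 and 4.75 in wild-type CMP and 4.60, 4.97, 4.67 and 4.84 in wild-type GMP. It read 4.62, 4.93 and 4.83 in Dnmt3a-/- CMP and 4.58, 4.77 and 4.79 in Dnmt3a-/- GMP. On the PR+/- arrays it read 6.73 and 5.96 in PR+/- GMP and 6.24, 5.92, 5.64 and 5.92 in PR+/- Dnmt3a-/- GMP. The 4 groups without PR thus shared a narrow range, whatever the cell type or the Dnmt3a genotype, and the PR+/- arrays did not overlap with it. All 6 PR+/- arrays lay above the 7 other GMP arrays for 1 of the 9 members and for 1.59% of all genes. The share of genes without overlap with the CMP arrays as well was not counted.

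Rxra rose by 1.57 ± 0.22 between wild-type and PR+/- GMP, 2.98-fold (limma adjusted p = 0.00213, 4 and 2 arrays). It rose by 1.21 ± 0.19 between Dnmt3a-/- and PR+/- Dnmt3a-/- GMP, 2.32-fold (adjusted p = 0.00827, 3 and 4 arrays). It was the only member that passed in these comparisons, in which 3.07% and 1.24% of all genes passed. The difference of both effects was -0.36 ± 0.29 (adjusted p = 0.573), and it was between -0.74 and 0.023 when single arrays were left out, the latter without PR+/- GMP replicate 1. Within the PR+/- arrays loss of Dnmt3a went with -0.42 ± 0.26 (adjusted p = 0.670). Without PR+/- GMP replicate 1, the highest array, the first difference was 1.19 (adjusted p = 0.0682). The second was 1.15 without Dnmt3a-/- GMP replicate 1 (adjusted p = 0.0528), 1.07 without the arrays high in immediate early genes (adjusted p = 0.102) and 1.21 with Y-linked signal entered as covariate (adjusted p = 0.119). PR+/- arrays are titled in a different style from the rest, and the labels do not say whether both were processed together. An effect of PR and one of any difference in handling cannot be told apart. In the absence of Dnmt3a the Y-linked genes differed as well, at 2.54 to 2.91 without PR and 3.12 to 7.01 with it.

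**Figure D3:**
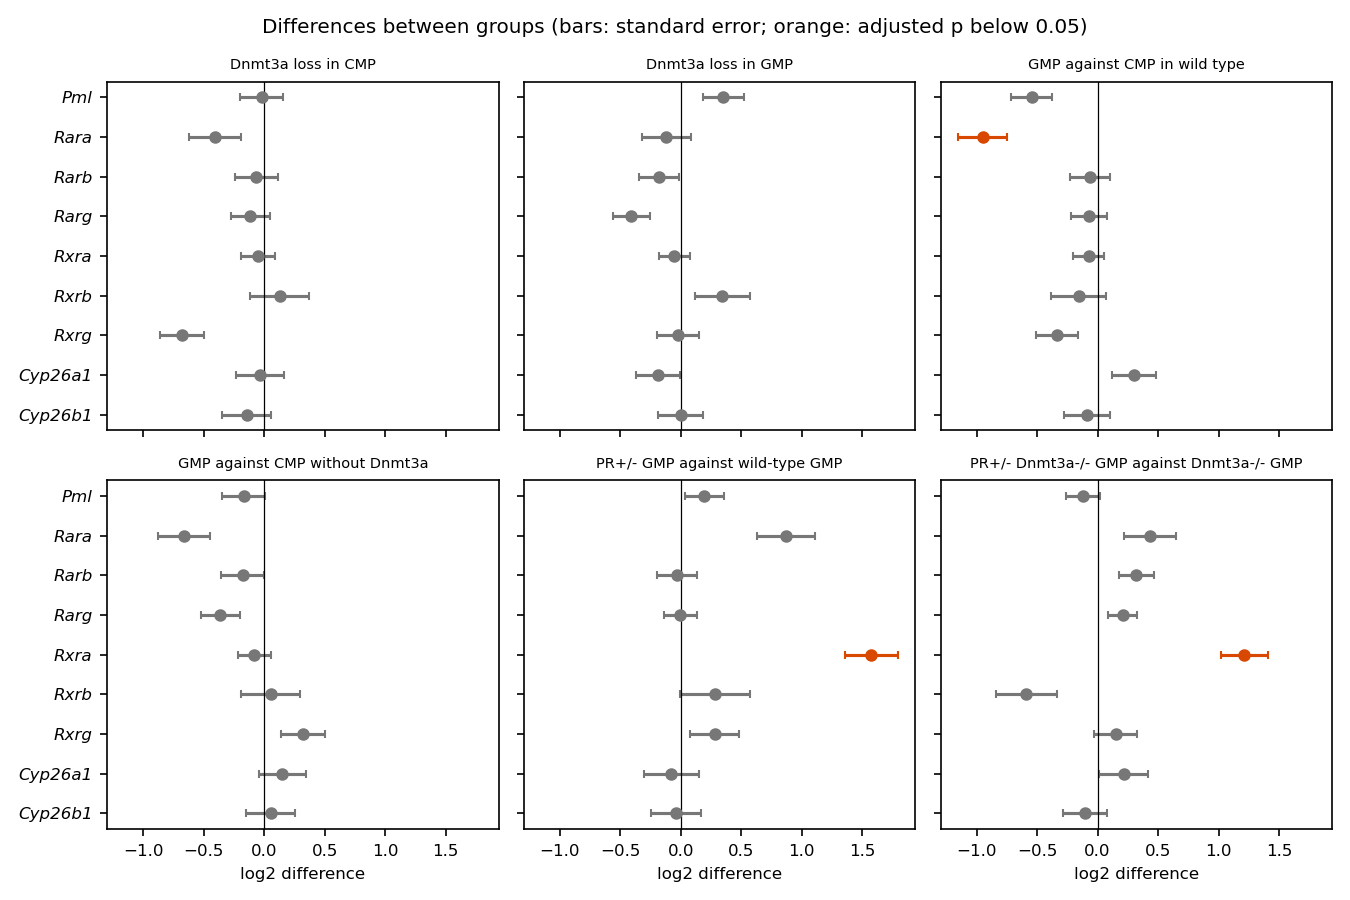
Log2 difference of the 9 genes in 6 comparisons (points: difference of group means; bars: standard error; orange: limma adjusted p below 0.05). Rxra stands at 1.57 and 1.21 in the comparisons with PR, and Rara at -0.95 between wild-type GMP and CMP, and the other points are grey.

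The higher signal of Rxra was spread over most, but not all, of its probe sets. In PR+/- against wild-type GMP 11 of 14 probe sets were higher, 9 of them by more than 1, and in PR+/- Dnmt3a-/- against Dnmt3a-/- GMP 12 of 14 were higher, 8 of them by more than 1. For 7 of 14 all 6 PR+/- arrays lay above the 7 other GMP arrays, where 0.71% of all probe sets did so. In the first comparison 3 passed, namely 4525356 (2.27), 4693756 (3.44) and 4764159 (2.96), and in the second 4764159 (2.02). Probe set 4764159 read 7.54 and 6.97 in PR+/- GMP, and 6.92, 6.21, 6.44 and 6.62 in PR+/- Dnmt3a-/- GMP. It read 4.04, 4.49, 4.45 and 4.21 in wild-type GMP and 4.69, 4.94 and 3.95 in Dnmt3a-/- GMP. Probe sets 4545897 and 4811131 stayed dim in all GMP groups, with group means of 2.14 to 2.92.

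**Figure D4:**
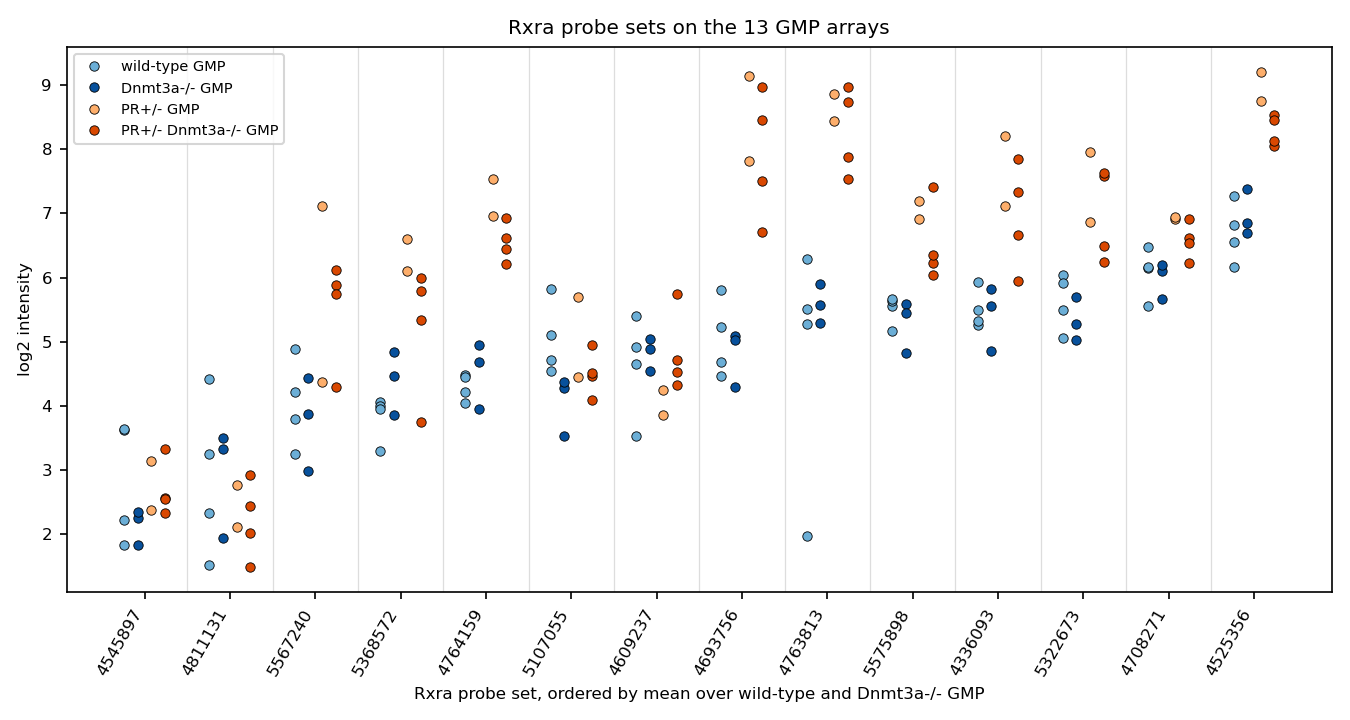
Log2 intensity of the 14 Rxra probe sets on the 13 GMP arrays (points: arrays, coloured by group), ordered by their mean in wild-type and Dnmt3a-/- GMP. In 7 of 14 probe sets the 6 PR+/- points all lie above the 7 others. In the remaining probe sets, dim and brighter ones among them, the points overlap.

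Markers of other cell types moved with PR as well. The 4 basophil and mast cell genes had a mean level of 6.57 to 7.43 in wild-type GMP, 9.55 to 9.68 in PR+/- GMP and 8.70 to 10.16 in PR+/- Dnmt3a-/- GMP. In Dnmt3a-/- GMP they stood at 8.66 to 9.60. The 4 monocyte genes were at 9.33 to 9.58 in wild-type GMP, 8.47 to 8.67 in Dnmt3a-/- GMP and 7.75 to 8.35 on the PR+/- arrays. The 5 neutrophil granule genes were at 8.13 to 8.99 in wild-type, 9.35 to 10.91 in Dnmt3a-/-, 9.80 to 9.88 in PR+/- and 8.76 to 9.48 in PR+/- Dnmt3a-/- GMP. Their median difference with PR was 1.25 in the presence of Dnmt3a, where 1 of 5 passed (Lcn2). It was -1.15 in the absence of Dnmt3a, where 0 of 5 passed. The 6 dendritic genes were at 7.26 to 7.49 in Dnmt3a-/- GMP and 5.22 to 5.97 in PR+/- Dnmt3a-/- GMP, and 4 of them fell (Cd74, H2-Aa, H2-Ab1 and H2-Eb1). In PR+/- GMP they were at 5.01 to 5.95, beside 4.93 to 5.88 in wild-type GMP. Between Dnmt3a-/- and PR+/- Dnmt3a-/- GMP the granule protease gene Ctsg fell by 3.58 ± 0.73 (adjusted p = 0.0323). The platelet factor gene Pf4 fell by 3.73 ± 0.64 (adjusted p = 0.0137). Ctsg read from 6.59 to 11.12 in PR+/- Dnmt3a-/- GMP. Each was the only gene of its list that passed there, of 3 measured primary granule and 4 megakaryocyte genes, with list medians of -1.13 and -0.18. In PR+/- against wild-type GMP the megakaryocyte gene Itga2b rose by 2.30 ± 0.25 (limma adjusted p = 0.000482), with a list median of -0.17. The part of such cells in the rise of Rxra was not tested.

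Rxrb and Rxrg are the other RXRs. Rxrb read 7.07, 7.15 and 7.32 in Dnmt3a-/- GMP and 6.69, 6.12, 6.74 and 6.82 in PR+/- Dnmt3a-/- GMP. That difference was -0.59 ± 0.25 (adjusted p = 0.300), with 12 of 12 probe sets lower. Between wild-type and PR+/- GMP it was 0.28 ± 0.29 (limma adjusted p = 0.685), with 8 of 12 higher. The difference of these effects was -0.87 ± 0.38 (limma adjusted p = 0.341). Within PR+/- GMP, loss of Dnmt3a went with -0.53 ± 0.23 (adjusted p = 0.624), with 12 of 12 lower. This comparison, that with Dnmt3a-/- GMP and the difference of effects share the PR+/- Dnmt3a-/- arrays, so they are not independent. The lowest Rxrb values, 6.06 in wild-type GMP replicate 2 and 6.12 in PR+/- Dnmt3a-/- GMP replicate 2, were on arrays high in immediate early genes. Rxrg, whose mean signal exceeded that of 20.6% of genes and so was dim, read 3.78, 3.99 and 4.23 in wild-type CMP and 3.31, 3.36 and 3.30 in Dnmt3a-/- CMP. The difference was -0.68 ± 0.18 (adjusted p = 0.101), with 11 of 12 probe sets lower. It was -0.73 (adjusted p = 0.00653) with array weights, and without wild-type GMP replicate 1, which enters only the shared spread, its adjusted p was 0.0492. Over 21 alternatives the difference of Rxrg was -0.87 to -0.45 and its limma adjusted p up to 0.295, and in 18 it did not pass.

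Cyp26a1 and Cyp26b1 encode cytochromes that break down retinoic acid, and Cyp26a1 is among the genes that retinoic acid induces most readily. Cyp26a1 lay at 2.82 to 3.61 over all arrays, a mean signal above that of 11.2% of genes. It stood at 3.03 to 3.60 on the PR+/- arrays and 2.86 to 3.61 on the other GMP arrays, which overlap almost fully. Cyp26b1 lay at 4.98 to 5.47 and 4.97 to 5.77. With PR the differences were -0.08 ± 0.23 and -0.04 ± 0.20 in the presence of Dnmt3a, and 0.22 ± 0.20 and -0.10 ± 0.18 in its absence (adjusted p from 0.650 to 0.953).

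Loss of Dnmt3a moved no member past the threshold. The count was 0 of 9 in CMP, where 1.28% of all genes passed, 0 of 9 in GMP, where 1.33% passed, and 0 of 9 averaged over both, where 5.75% passed. At an unadjusted limma p below 0.05 stood 1 (Rxrg), 1 (Rarg) and 2 (both) of the 9, beside 13.7%, 18.9% and 23.9% of all genes. Averaged over both, Rarg was at -0.26 ± 0.11 (adjusted p = 0.172), at -0.36 (adjusted p = 0.0321) without wild-type CMP replicate 1, and at 0.033 with the median of the probe sets. The median difference of the members was -0.06, -0.06 and -0.11, and that of all genes -0.04, -0.07 and -0.06. None of the Pml, Rara and Rxra probe sets passed in the averaged comparison either, where 0.574% of all probe sets did. The difference of the Dnmt3a effect between CMP and GMP passed for 0% of genes in limma, with 1083 genes (6.86%) and 1 member, Rxrg, at an unadjusted p below 0.05. Within the PR+/- arrays 0% of genes passed, with 1256 genes (7.96%) and 2 members, Rara and Rxrb, at an unadjusted p below 0.05. In that fit of 6 arrays even Dnmt3a, at -1.05 ± 0.18, had an adjusted p of 0.478. Of the differences between the Dnmt3a effects with and without PR 0.0317% passed, and 0 of 9 members, with 1, Rxrb, at an unadjusted p below 0.05, as were 14% of all genes.

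Other genes of the pathway were counted by lists. Of the retinoid transport and metabolism genes 18 of 20 were measured. Aldh1a1, which makes retinoic acid from retinal, fell by 1.98 ± 0.49 between wild-type CMP and GMP (adjusted p = 0.0370) and by 2.82 ± 0.52 without Dnmt3a (adjusted p = 0.00328), comparisons in which 4.3% and 10.1% of all genes passed. Wild-type CMP arrays read from 5.31 to 7.38 and wild-type GMP arrays from 3.72 to 4.42. Retsat, a retinol saturase, rose by 0.74 ± 0.19 (adjusted p = 0.0458) and by 1.27 ± 0.20 (adjusted p = 0.00131). No gene of this list passed in another comparison, those with PR included.

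Of the receptor co-regulators 12 of 14 were measured, and 4 of them fell between CMP and GMP without Dnmt3a, where 10.1% of all genes passed and 4.58% fell. These were the co-activators Ncoa3 (-0.92 ± 0.20, adjusted p = 0.0107) and Ncoa2 (-0.50 ± 0.13, adjusted p = 0.0313), the co-repressor Nrip1 (-0.87 ± 0.21, adjusted p = 0.0188) and the cofactor Trim24 (-0.67 ± 0.20, adjusted p = 0.0470). The co-regulators passed in no other comparison, and their median differences with PR were -0.11 with Dnmt3a and 0.05 without it.

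Among 12 of 13 RXR partner receptors 1 passed, the vitamin D receptor Vdr. With the SD after each mean, it was at 6.10 ± 0.36 in wild-type GMP (n = 4) and 4.94 ± 0.28 in Dnmt3a-/- GMP (n = 3). It was at 4.65 ± 0.38 (SD) in PR+/- GMP (n = 2) and 4.96 ± 0.25 (SD) in PR+/- Dnmt3a-/- GMP (n = 4). Single arrays read 5.83 to 6.60 in wild-type GMP, and 5.79 to 5.94 in wild-type CMP. Vdr fell by 1.16 ± 0.20 (SE) with loss of Dnmt3a in GMP (adjusted p = 0.0152), where 1.33% of all genes passed. With PR in the presence of Dnmt3a it fell by 1.45 ± 0.25 (SE, adjusted p = 0.00827), where 3.07% passed. Both comparisons share the wild-type GMP arrays. With PR in the absence of Dnmt3a, Vdr did not pass. Vdr stood low in PR+/- GMP, where Rxra stood high, and in Dnmt3a-/- GMP, where Rxra was at the level of the wild type. Any link between these genes was not tested.

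Of the genes of PML bodies 6 of 11 were measured, and Sp100 (0.44 ± 0.11, adjusted p = 0.0395) and the kinase Hipk2 (0.35 ± 0.09, adjusted p = 0.0392) rose with loss of Dnmt3a averaged over CMP and GMP, where 5.75% of all genes passed. In the same comparison genes that rose were 4 of 4 of the megakaryocyte, 4 of 6 of the dendritic, 2 of 4 of the basophil and 3 of 5 of the neutrophil granule list, and 3 of 4 monocyte and 2 of 2 Y-linked genes fell, and their part was not tested. Of the genes known to respond to retinoic acid 7 of 10 were measured. Uba7, the activating enzyme of ISG15, rose with loss of Dnmt3a (0.42 ± 0.10, adjusted p = 0.0285). It fell between CMP and GMP, by 0.55 ± 0.13 in wild type (adjusted p = 0.0366) and 0.75 ± 0.14 without Dnmt3a (adjusted p = 0.00425). Between CMP and GMP without Dnmt3a, the granulocyte factor Cebpe rose by 3.34 ± 0.64 (adjusted p = 0.00409) and the transglutaminase Tgm2 fell by 0.72 ± 0.16 (adjusted p = 0.0110). With PR no gene of this list passed in either comparison, with medians of -0.09 and 0.03.

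Interferon induces Pml, and 10 of 14 interferon-stimulated genes were measured. Irf7 rose by 0.71 ± 0.16 with loss of Dnmt3a averaged over the cell types (adjusted p = 0.0243), and it and Irf9 fell between CMP and GMP without Dnmt3a, by 1.09 ± 0.24 (adjusted p = 0.00905) and 0.78 ± 0.22 (adjusted p = 0.0358). Irf1, which retinoic acid also induces, fell by 0.76 ± 0.17 between Dnmt3a-/- and PR+/- Dnmt3a-/- GMP (adjusted p = 0.0497). Its levels were 6.39 ± 0.15 (SD, n = 3) and 5.63 ± 0.27 (SD, n = 4), beside 6.21 ± 0.21 (SD, n = 4) in wild-type and 5.57 ± 0.11 (SD, n = 2) in PR+/- GMP.

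The genes whose levels ran most like a member were found by Pearson correlation over the 19 arrays among genes brighter than the median. The arrays share groups, so these are descriptions. For Rara they were Ip6k1 (0.858), Ahdc1 (0.832) and Apobec3 (0.825), for Pml they were Tango2 (0.882), Aplp2 (0.856) and Ap1b1 (0.838), and for Rxrb they were Stard3 (0.855), Ikzf5 (0.845) and Hdac8 (0.832).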

How the data were processed

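Exon array intensities were deposited by the authors as 1 linear intensity per probe set and array (194293 probe sets, 19 arrays). RMA, Partek and the build mm9 are named, with no role or version, per the submitters' processing notes. The log2 of each intensity was taken, and the mean over the probe sets with 1 gene symbol gave 15781 genes (179496 probe sets). The 1328 probe sets with several symbols and 13469 with none were left out. Symbols were updated through a RefSeq table (GRCm38.p6, names only). No filter on dim genes was used, and the number of arrays limits the precision. The members and gene lists were chosen with earlier results of these data known. List genes were named where they passed in any comparison.

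Two-sided tests were run in R 4.3.3 with limma 3.58.1, its functions lmFit and eBayes. Adjustment was that of Benjamini and Hochberg over all genes, or over all probe sets with 1 symbol, with a threshold of 0.05. The fits held the 13 wild-type and Dnmt3a-/- arrays, the 6 PR+/- arrays, or the 13 GMP arrays. The fit was tested on simulated data. Alternatives changed the probe set summary, the normalization, the filter, the covariates, the weights, the block, the arrays in the fit or left out single arrays. Replicate numbers are shared by the PR+/- groups only, and arrays with the same number were not clearly alike (r = 0.0774 and 0.0169), so they were not paired. Dnmt3a-/- CMP and GMP arrays carry adjacent title numbers, and whether these mark the same mouse is not labelled. They were entered as a random block in an alternative (estimated correlation 0.181).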

Additional observations from a re-analysis of the deposited data

How the results depend on the processing

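Where Rxra and Rara passed, they kept their direction under every alternative run, from 1.19 to 2.27 for Rxra between wild-type and PR+/- GMP, from 1.07 to 1.73 between both groups without Dnmt3a, and from -1.06 to -0.56 for Rara between wild-type CMP and GMP. Counts are members past the threshold. Between wild-type GMP and CMP the count of 1 fell to 0 with the median or the brighter probe sets and without arrays high in immediate early genes (above 7.5, or above 8, the latter chosen after seeing the data). In cells without Dnmt3a it went from 0 to 1 (Rara) with the filter on dim genes and with adjacent title numbers as a random block, and to 2 (Rara and Rarg) with array weights or without the 5 arrays above 8. With PR the count of 1 in wild-type background became 2 (Rxra and Rara) with the filter, with all 19 arrays fitted and with array weights. In the Dnmt3a-/- background it became 0 without arrays high in immediate early genes (above 7.5 or 8) and with the Y-linked covariate. For loss of Dnmt3a, array weights gave 1 in CMP (Rxrg), 1 in GMP (Rarg) and 2 averaged, and leaving out the 5 arrays above 8 gave 1 in CMP (Rxrg) and 1 averaged (Rarg). Leaving out single arrays gave 0 to 1 in CMP, averaged, in both comparisons of GMP with CMP and in both with PR, and 0 in the other 4. The probe sets of Pml and Rara past the threshold were 1, and 0 with all 19 arrays fitted. With the median of the probe sets Rarg turned to 0.031 for loss of Dnmt3a in GMP and to 0.033 averaged. Leaving out single arrays moved the Rxra interaction between -0.74 and 0.023, the latter without PR+/- GMP replicate 1. With the replicate block, the paired fit of the PR+/- arrays, 0 members passed as without it. Above 7.5 all Dnmt3a-/- CMP arrays leave, so comparisons that need them gave no value. The causes of these changes were not tested.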
